A study of Mus musculus with 48 samples.

Results

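A set of 34 genes of fatty acid oxidation and ketogenesis was followed in mouse liver, from the nuclear regulators of the pathway to fatty acid uptake, activation, the carnitine shuttle, the mitochondrial β-oxidation spiral, peroxisomal oxidation and ketone body enzymes. They were taken by gene symbol from a list drawn up by pathway role, by no threshold on their values but with earlier results of these data known, and all 34 were found among the 20622 genes with cytoplasmic RNA counts and the 16269 with ribosome footprint counts, in every library. Each of 24 livers gave 1 library of ribosome-protected fragments (RPFs), which are the stretches of mRNA that ribosomes shield from digestion, and 1 of cytoplasmic RNA, 48 in all. The 4 genotypes were wild-type (WT), Ctnnb1ex3/+ (B), in which removal of an exon from 1 allele gives a stabilised β-catenin, R26-LSL-MYC (M), in which a MYC transgene is switched on, and both together (BM). Each genotype had 3 mice at day 4 and 3 at day 10, and every mouse, WT included, had received AAV8.TBG.Cre, a virus whose TBG promoter drives Cre in hepatocytes, so the alleles of other liver cells were not targeted. The mice were 2 to 4 months old on a mixed C57BL/6 background, and the sample labels give them as males, whereas the study's methods describe both sexes for animals given this virus except at a low titre. Sex was therefore not settled here.

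In liver, fatty acids are taken up, bound by carrier proteins, joined to coenzyme A and carried into mitochondria as carnitine esters, where repeated rounds of dehydrogenation, hydration and thiolytic cleavage release acetyl-CoA. Peroxisomes shorten very long chains. During fasting, PPARA and its coactivator PGC-1α raise transcription of this pathway, and liver turns the acetyl-CoA into ketone bodies for other organs.

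RPF totals ranged from 9742197 to 14380713 per library and RNA totals from 3254141 to 6540116. Levels are given as CPM, a gene's share of the library total on a common scale, corrected by a TMM factor, which centres most genes at no change. At day 10, the 5 hepatocyte markers *Alb*, *Apoa1*, *Ttr*, *Hnf4a* and *Serpina1c* summed to between 81700 and 83800 RNA CPM in WT and between 21800 and 23400 in BM, and the same list summed to 63200 to 82300 and 20600 to 24400 RPF CPM. The RNA sum was also lower in B (27000 to 33200) and M (35200 to 42500) at day 10, and at day 4 in BM (28700 to 36500) and M (46600 to 63900) against 77400 to 89000 in WT, with B at 59300 to 79000. Markers of other liver cells, listed further below, were also lower in BM RNA at day 4. Those of macrophages summed to 89.9 to 105 CPM against 202 to 259 in WT. Endothelial markers summed to 196 to 229 against 311 to 332, and stellate cell markers to 202 to 257 against 377 to 406. Cholangiocyte markers overlapped WT (80.2 to 117 against 103 to 185). The part of these markers in the results was not tested. In whole liver, fewer hepatocytes and less of an mRNA per hepatocyte cannot be told apart. The libraries of 1 mouse stood apart. Over all genes, the RPF levels of BM mouse 1 at day 10 differed from the other 2 mice of its group by a median of 0.408 on the log2 scale, against 0.186 and 0.274 for BM mice 2 and 3 and 0.13 to 0.156 for the WT mice of that day. The RPFs of 13 genes known to rise in fasted liver, none of them among the 34, summed to 2620 CPM in that mouse, 15100 in BM mouse 2 and 18800 in BM mouse 3, and to 2980 to 3350 CPM in WT. Those of 12 genes known to rise in fed liver summed to 3580 CPM in BM mouse 1, 1390 and 1250 in BM mice 2 and 3 and 9440 to 11700 in WT, so by these genes mouse 1 lay below WT as well. Values without this mouse are given beside the BM results below whose call or size depended on it.

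The 34 genes spanned a wide range of abundance. By length-corrected RNA level (TPM) in WT at day 4, the fatty acid binding protein gene *Fabp1* led with 3400 ± 382 (SD, n = 3), followed by the last enzyme of the spiral *Acaa2* (544 ± 17.0), the peroxisomal carnitine octanoyltransferase *Crot* (521 ± 20.2) and the long-chain acyl-CoA synthetase *Acsl1* (351 ± 20.8). The gap between *Acaa2* and *Crot* was about as wide as their SDs. At the other end were the pantetheinase *Vnn1* (8.79 ± 1.08), the carnitine acetyltransferase *Crat* (6.26 ± 1.07), the cytosolic thioesterase *Acot1* (3.14 ± 0.912) and the coactivator *Ppargc1a* (2.52 ± 0.356), of which the last 2 did not differ beyond their spread. *Ppara* RNA stood at 52.0 ± 0.845 TPM.

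At day 4, RPFs of these genes were more often higher than lower. In B against WT, 10 of the 34 rose and none fell, where 12.5% of 11058 genes tested were called, 6.21% higher and 6.26% lower (edgeR's quasi-likelihood test, adjusted p under 0.1, used throughout), and the median log2 change was 0.18, against -0.01 over all genes. In M, 11 rose and 5 fell (33.3% of 11115 genes called, 18.5% higher and 14.7% lower), with a median of 0.11 against 0.01 over all genes. In BM, 12 rose and 7 fell (50.9% of 11375 genes called, 26.2% higher and 24.7% lower), a share close to that of all genes, with a median of 0.08. The B count was 5 without WT mouse 1 and 6 without WT mouse 3, B mouse 2 or B mouse 3. RNA gave similar counts, with 11 higher and none lower in B (8.14% of 10993 genes called, 4.41% higher and 3.73% lower), 9 higher and 4 lower in M (23.7% of 11173, 13.5% higher and 10.3% lower) and 11 higher and 7 lower in BM (41.9% of 11211, 21.3% higher and 20.6% lower). The RNA count in B was 7 without WT mouse 1 or B mouse 3, 6 when B mouse 2 was left out and 5 when WT mouse 3 was.

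At day 10 the direction was the opposite of day 4 in B. In BM, whose share at day 4 was close to that of all genes, most called members were lower. In B, 2 of the 34 rose and 13 fell (25.2% of 11454 genes called, 13.1% higher and 12.1% lower), and the median log2 RPF change was -0.22. In M, 3 fell and none rose (19.4% of 11300 called, 10.6% higher and 8.80% lower), with a median of 0.02. In BM, 4 rose and 21 fell (46.8% of 11346 called, 24.5% higher and 22.3% lower), with a median of -0.47 against 0.03 over all genes, so that 21 of 34 members were called lower where 22.3% of all genes were. Without BM mouse 1, 30 were called, among them all 25, and *Acadm*, *Echs1*, *Etfdh*, *Hadh* and *Hadha* were added, although 66.3% of all genes were then called (33.4% higher and 32.9% lower), while without WT mouse 1 or WT mouse 3 the count was 16. The B count was 9 without WT mouse 1 and 8 when WT mouse 3 or B mouse 2 was left out. In M leaving out WT mouse 2 gave 5, WT mouse 3 gave 1 and M mouse 3 gave 8. At the RNA level, BM had 3 members higher and 23 lower (45.7% of 11125 genes called, 22.9% higher and 22.8% lower), B had 2 higher and 9 lower (15.6% of 11296, 8.14% higher and 7.48% lower) and M none higher and 3 lower (15.7% of 11143, 8.53% higher and 7.12% lower). Without BM mouse 1, 28 members were called in BM RNA, where 57.1% of all genes were. The RNA count in B was 5 without WT mouse 1 and 6 without WT mouse 3 or B mouse 2, and in M it was 5 without M mouse 3.

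These splits depend on TMM. When only library totals scaled the counts, the median RPF change of all genes moved at day 4 to 0.10 (B), 0.23 (M) and 0.42 (BM), and at day 10 to 0.27, 0.25 and 0.41, and RNA medians moved to between 0.18 and 0.54. RPF calls at day 4 were then 20 higher and none lower in B, 24 and 2 in M and 28 and 2 in BM, with 15.2%, 44.3% and 68.2% of all genes called. At day 10 they were 5 higher and 7 lower in B, 10 and 2 in M and 7 and 13 in BM, with 39.0%, 33.8% and 54.2% of all genes called. RNA calls at day 4 were 22 higher and none lower, 28 and 2, and 28 and none in the same order (16.5%, 53.3% and 72.7% of genes), and 3 and 6, 7 and 2, and 8 and 16 at day 10 (23.4%, 19.7% and 58.9%). In BM at day 10 the members' median was -0.09 under that scaling, still below that of all genes, and none of the 25 members called changed sign, with 17 called in the same direction. At day 4 in BM, the RPF changes of *Etfb* and *Pex11a* changed sign, as did the RNA changes of *Crot*, *Etfb*, *Acsl1*, *Acsl5*, *Pex11a* and *Fabp1*, and in M the RNA change of *Pex11a*. The RPF calls that ended under library totals were those of *Cpt1a*, *Pex11a* and *Fabp1* in M and of *Crot*, *Acsl1*, *Pex11a* and *Fabp1* in BM at day 4. At day 10 they were those of *Ppara*, *Acadvl*, *Acads*, *Acadm*, *Eci1* and *Vnn1* in B and of *Acsl5* in M. In BM at day 10 they were those of *Ppara*, *Acadvl*, *Acadl*, *Eci1*, *Decr1*, *Acat1*, *Slc25a20* and *Vnn1*. Changes below are relative to the bulk of genes, as TMM sets it.

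**Figure D1:**
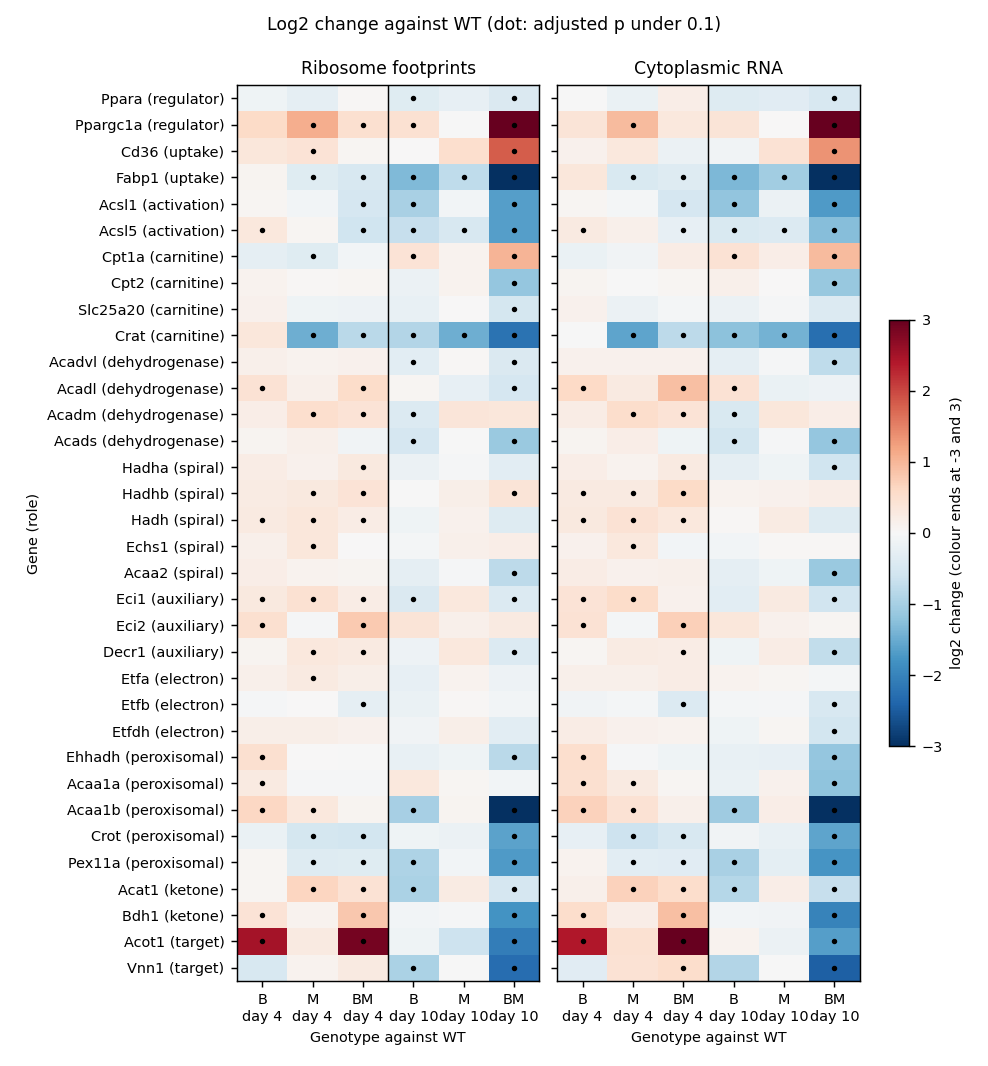
Log2 change against WT of the same day for the 34 genes, ordered by role, for RPFs (left) and cytoplasmic RNA (right) in B, M and BM at day 4 and day 10. Red is higher and blue lower than WT, colours end at -3 and 3, and dots mark an adjusted p under 0.1. The day 10 BM column is mostly blue, with Ppargc1a, Cd36, Cpt1a and Hadhb marked as higher for RPFs.

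Among the regulators, *Ppara*, the nuclear receptor that binds fatty acids and drives oxidation genes, was not called at day 4. Its RPFs were 164, 204 and 142 CPM in WT at day 4, 161, 165 and 144 in B, 122, 136 and 156 in M and 140, 183 and 188 in BM, and the groups overlapped. The log2 changes were -0.13 in B (SE 0.124, adjusted p = 0.626), -0.26 in M (SE 0.132, adjusted p = 0.179) and 0.03 in BM (SE 0.143, adjusted p = 0.891). Day 10 levels were 131, 118 and 137 CPM in WT, 105, 108 and 90.7 in B, 140, 112 and 75.8 in M and 108, 85.3 and 94.0 in BM. All B and BM mice lay below all WT mice, and M overlapped both. *Ppara* fell by 0.36 in B (SE 0.11, adjusted p = 0.0524) and by 0.44 in BM (SE 0.151, adjusted p = 0.0534), and the M value was -0.24 (SE 0.202, adjusted p = 0.48). The B call was lost without WT mouse 1 (adjusted p = 0.132), WT mouse 3 (0.177) or B mouse 3 (0.104), and the BM call without WT mouse 1 (0.14), WT mouse 3 (0.164), BM mouse 2 (0.191) or BM mouse 3 (0.13). Both were also lost with library totals alone (-0.10 and -0.06).

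*Ppargc1a* encodes PGC-1α, the coactivator of PPARA that is induced by fasting. At day 4 its RPFs were 4.78, 5.95 and 5.43 CPM in WT, 12.8, 9.35 and 11.3 in M and 7.09, 9.04 and 5.95 in BM. It rose 2.12-fold in M (log2 1.08, SE 0.166, adjusted p = 0.0013) without overlap, and in BM it was called at 0.48 (SE 0.192, adjusted p = 0.0633) although BM mouse 3 equalled WT mouse 2. Day 10 levels were 9.27, 12.5 and 11.9 CPM in WT, 13.3, 17.2 and 16.1 in B, 11.0, 11.3 and 11.2 in M and 27.4, 173 and 232 in BM. All BM mice lay above all others, but mouse 1 far below mice 2 and 3. The BM change was 12.8-fold (log2 3.67, SE 0.692, adjusted p = 0.00597), and without BM mouse 1 it was 18.0-fold (log2 4.17, SE 0.169, adjusted p = 3.67e-08). Its RNA was 19.3, 22.7 and 15.2 CPM in WT and 42.9, 226 and 270 in BM (log2 change 3.21, SE 0.58, adjusted p = 0.00311). In B its RPFs rose by 0.46 (SE 0.163, adjusted p = 0.0825), a call lost in DESeq2 (adjusted p = 0.13) and without WT mouse 1 (0.254), WT mouse 3 (0.165), B mouse 2 (0.243) or B mouse 3 (0.124). The summed fasted-liver genes moved with *Ppargc1a* across the 3 BM mice. In such a sum the most abundant genes weigh most, and not every gene of the list need move with it. *Fgf21*, a gene of the list, had no RNA counts in any BM or M mouse of that day. The RPFs of 17 circadian clock genes split these mice too, at 211 CPM in mouse 1, 382 in mouse 2 and 379 in mouse 3 against 211 to 239 in WT, and 4 of the 16 tested were called higher and 1 lower in BM, close to the 24.5% of all genes called higher. Without mouse 1 they were 8 and 3 of 17, where 33.4% were. The RNA of the clock list split the mice less, at 382, 475 and 446 CPM in BM mice 1, 2 and 3 against 392 to 434 in WT. At day 4 its RPFs summed to 161 to 193 CPM in BM and 229 to 247 in WT, and its RNA to 396 to 441 and 414 to 477. The part of either list in this result was not tested.

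Fatty acid uptake held the largest fall and a large rise. *Fabp1*, the liver fatty acid binding protein, had 2310, 2690 and 2200 RPF CPM in WT at day 4, 2800, 2570 and 2330 in B, 2020, 1540 and 1930 in M and 1730, 1710 and 1640 in BM. M and BM lay below all WT mice, and B overlapped WT. The log2 changes were -0.36 in M (SE 0.112, adjusted p = 0.0399) and -0.48 in BM (SE 0.0945, adjusted p = 0.00179). At day 10 the mice had 2620, 2290 and 3000 CPM in WT, 1110, 872 and 1220 in B, 1720, 1740 and 1190 in M and 50.0, 26.5 and 18.9 in BM. No mutant mouse reached the lowest WT mouse. *Fabp1* RPFs fell by 1.32 in B (SE 0.169, adjusted p = 0.00153), by 0.77 in M (SE 0.184, adjusted p = 0.033, and 0.112 without WT mouse 3) and by 6.38 in BM (SE 0.425, adjusted p = 0.000117), which is 83.5-fold in BM, or 117-fold without mouse 1. Its RNA in BM went from 1620, 1170 and 1350 CPM in WT to 17.3, 5.04 and 3.90, a log2 change of -7.26 (SE 0.532, adjusted p = 4.6e-05), or -8.26 (SE 0.252, adjusted p = 3.58e-09) without mouse 1, and per length it went from 5240 ± 650 to 49.4 ± 43.1 TPM (SD, n = 3).

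*Cd36*, the fatty acid translocase of the plasma membrane, went the other way. Its RPFs were 62.8, 107 and 57.6 CPM in WT at day 10, 51.5, 73.5 and 104 in B, 95.3, 80.5 and 147 in M and 224, 294 and 287 in BM, and all BM mice lay above every other mouse of either day. It rose 3.51-fold in BM (log2 1.81, SE 0.262, adjusted p = 0.00219), and B and M overlapped WT. At day 4 it was called in M (0.42, SE 0.126, adjusted p = 0.0329). *Cd36* is also expressed by macrophages, endothelial cells and adipocytes. In RNA at day 10, the 6 Kupffer cell and macrophage markers summed to 208 to 242 CPM in WT and 209 to 232 in BM, the 5 endothelial markers to 344 to 367 in WT and 210 to 265 in BM, and all 4 adipocyte markers were at 0 in the BM mice, so in RNA none of these 3 lists stood above WT in BM. The 4 blood and T cell markers summed to 156, 430 and 596 CPM in the RNA of BM mice 1, 2 and 3 and 302 to 484 in WT, and in RPFs to 207, 603 and 786 CPM and 358 to 427. Mouse 1 lay below WT in both, mouse 3 above it in both and mouse 2 above it in RPFs only. The 5 stellate cell markers were lower in BM at day 10, with RNA sums of 419 to 483 CPM in WT, 208 to 248 in B, 314 to 348 in M and 194 to 222 in BM. Their RPF sums were 727 to 845, 397 to 603, 567 to 632 and 592 to 689 CPM in the same order. The 5 cholangiocyte markers summed to 84.7 to 142 RNA CPM in WT and 104 to 131 in BM. In RPFs the macrophage list summed to 423 to 587 CPM in WT and 562 to 590 in BM, and the part of any of these cells in the *Cd36* result was not tested. Its RNA was 53.0, 77.3 and 45.9 CPM in WT and 144, 154 and 153 in BM (log2 change 1.34, SE 0.191, adjusted p = 0.00102). Of the acyl-CoA synthetases, which activate long-chain fatty acids, *Acsl1* had 1470, 1180 and 1510 CPM in WT at day 10, 820, 644 and 680 in B and 422, 441 and 470 in BM, and *Acsl5* had 835, 834 and 951 in WT, 461, 490 and 694 in B, 628, 703 and 548 in M and 302, 266 and 274 in BM. The groups did not overlap with WT. *Acsl1* fell by 0.97 in B (SE 0.147, adjusted p = 0.00298) and 1.66 in BM (SE 0.178, adjusted p = 0.000761), and *Acsl5* by 0.68, 0.48 and 1.65 in B, M and BM. The M call of *Acsl5* was lost without WT mouse 3 (adjusted p = 0.153) or M mouse 1 (0.162) and with library totals alone (0.173). At day 4 in BM both were already lower, *Acsl1* by 0.51, a call lost with library totals alone (-0.09), and *Acsl5* by 0.59 (SE 0.0871, adjusted p = 0.000249), the latter with 672, 678 and 747 CPM in WT and 473, 479 and 417 in BM.

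The promoter of the gene that fell most in BM at day 10 and those of the genes that rose most are shown for comparison. They are the 250 bases before the start of each gene in RefSeq (GRCm38.p6), written 5′ to 3′ along the gene, with matches on either strand to a PPAR response element (AGGNCANAGGNCA) or to its half-site (AGGTCA) in capitals.
Fabp1 (chr6:71199629-71199878, strand +): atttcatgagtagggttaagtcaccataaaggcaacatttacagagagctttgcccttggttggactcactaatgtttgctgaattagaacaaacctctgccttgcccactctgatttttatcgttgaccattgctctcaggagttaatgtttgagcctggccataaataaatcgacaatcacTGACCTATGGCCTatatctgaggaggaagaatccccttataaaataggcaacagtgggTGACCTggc
Ppargc1a (chr5:51567726-51567975, strand −): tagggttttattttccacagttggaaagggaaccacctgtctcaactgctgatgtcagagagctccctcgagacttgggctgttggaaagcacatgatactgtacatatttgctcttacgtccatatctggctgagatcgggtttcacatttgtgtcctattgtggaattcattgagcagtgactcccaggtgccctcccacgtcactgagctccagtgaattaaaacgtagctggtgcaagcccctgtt
Cd36 (chr5:17835897-17836146, strand −): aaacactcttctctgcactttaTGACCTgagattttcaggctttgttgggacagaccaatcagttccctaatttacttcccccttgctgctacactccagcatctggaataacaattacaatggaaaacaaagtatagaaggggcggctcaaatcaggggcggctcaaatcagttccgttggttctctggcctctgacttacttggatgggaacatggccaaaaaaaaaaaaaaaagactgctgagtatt
Cpt1a (chr19:3323051-3323300, strand +): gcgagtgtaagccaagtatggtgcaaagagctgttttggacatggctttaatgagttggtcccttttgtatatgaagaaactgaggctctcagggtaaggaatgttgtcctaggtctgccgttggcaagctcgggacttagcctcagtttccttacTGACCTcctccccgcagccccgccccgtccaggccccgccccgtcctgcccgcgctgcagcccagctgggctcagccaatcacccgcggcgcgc
Of the 34 genes, 29 were matched to a RefSeq promoter. Of these only *Fabp1* held AGGNCANAGGNCA, a motif found in 0.338% of 32851 promoters of this length, and the match overlaps one of its 2 half-sites. AGGTCA was found in 6 of the 29 (*Acadm*, *Acadvl*, *Cd36*, *Cpt1a*, *Echs1* and *Fabp1*), against 14% of all promoters. The *Ppargc1a* window held neither. The E-box CACGTG, to which MYC binds (6.02% of promoters), TGACGTCA, the cAMP response element (1.55%), and CTTTGATC, a TCF/LEF motif (0.801%), were in none of the 29 windows. *Fabp1*, *Cd36* and *Cpt1a* all hold the half-site, and the first fell in BM at day 10 while the other 2 rose.

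The carnitine shuttle split in the same comparison. *Cpt1a*, the rate-limiting carnitine palmitoyltransferase of the outer mitochondrial membrane, had 375, 420 and 341 RPF CPM in WT at day 4, 306, 299 and 347 in B, 282, 272 and 302 in M and 312, 392 and 343 in BM. M lay below WT, and B and BM overlapped it. It fell by 0.37 in M (SE 0.0878, adjusted p = 0.0114), a call lost with library totals alone (adjusted p = 0.177). The summed fasted-liver genes were also lower in M at that day (3360 to 4470 CPM against 5250 to 8490 in WT), and their part was not tested. The values in B and BM were -0.27 (SE 0.0988, adjusted p = 0.135) and -0.09 (SE 0.107, adjusted p = 0.522), of which the BM value was 0.33 with library totals alone. At day 10 *Cpt1a* had 313, 268 and 294 CPM in WT, 455, 353 and 370 in B, 340, 308 and 297 in M and 408, 632 and 739 in BM. All B and BM mice lay above all WT mice. *Cpt1a* rose by 0.41 in B (SE 0.13, adjusted p = 0.0587) and 2.01-fold in BM (log2 1.01, SE 0.236, adjusted p = 0.0134), or 2.33-fold without BM mouse 1, and its M value was 0.11 (SE 0.113, adjusted p = 0.565). The B call was lost without WT mouse 2 (adjusted p = 0.145), WT mouse 3 (0.155) or B mouse 1 (0.172).

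*Cpt2*, which turns the carnitine ester back into acyl-CoA inside the mitochondrion, and *Slc25a20*, the carrier between both enzymes, fell in BM at day 10. *Cpt2* went from 213, 173 and 200 CPM in WT to 107, 78.6 and 79.9 (log2 change -1.16, SE 0.178, adjusted p = 0.00271) and *Slc25a20* from 157, 104 and 136 to 91.1, 94.2 and 92.8 (-0.53, SE 0.179, adjusted p = 0.0501). The RPFs of neither were called in another comparison with WT. *Crat*, which buffers acetyl-CoA as acetylcarnitine, had the largest change in M at both days. It had 17.4, 18.2 and 15.6 RPF CPM in WT at day 4, 26.2, 19.4 and 19.4 in B, 6.41, 6.21 and 5.45 in M and 8.92, 9.76 and 10.1 in BM. Its day 10 levels were 22.0, 19.2 and 15.4 in WT, 12.6, 7.35 and 11.0 in B, 7.17, 8.13 and 5.31 in M and 5.05, 3.34 and 3.80 in BM. Every M and BM mouse lay below every WT mouse at both days. *Crat* fell by 1.47 in M at day 4 (SE 0.127, adjusted p = 7.44e-05) and 1.46 at day 10 (SE 0.196, adjusted p = 0.00453), and by 0.81 and 2.22 in BM. Its level was higher in BM than in M at day 4 (log2 difference 0.65, SE 0.128, adjusted p = 0.00445) and lower at day 10 (-0.78, SE 0.256, adjusted p = 0.0681, not called with library totals alone).

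**Figure D2:**
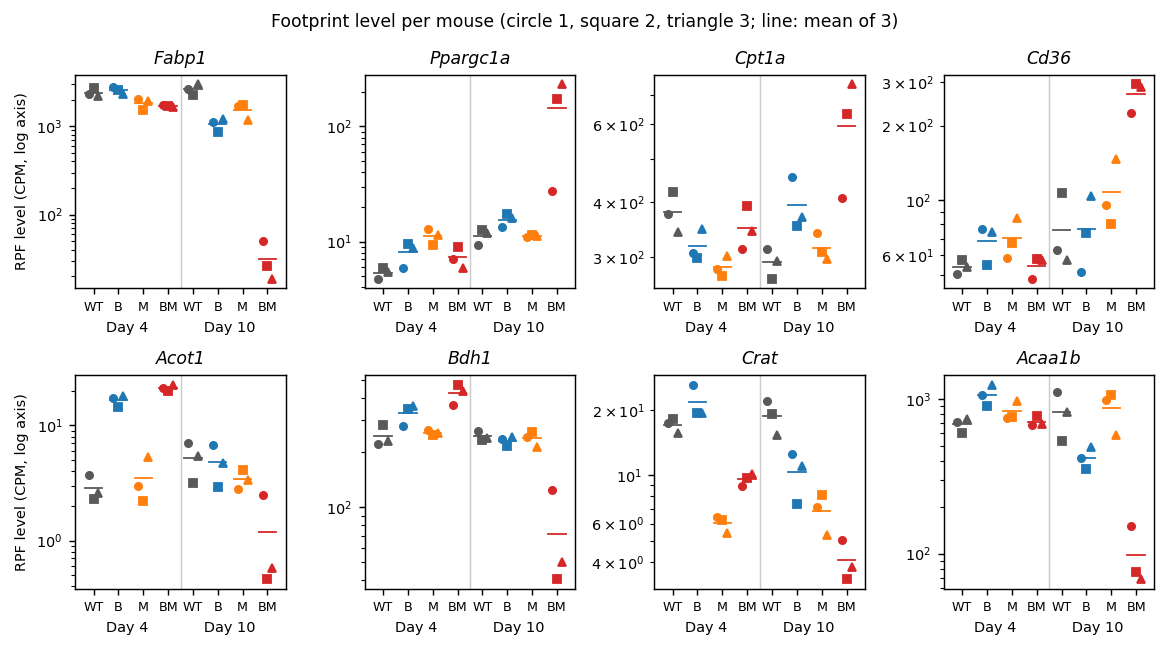
RPF level (CPM, log axis) of 8 genes in each mouse, by genotype and day, with symbols for mice 1, 2 and 3 and a line at the mean of 3. BM mouse 1 at day 10 (circle) lies between the other BM mice and WT for all 8 genes.

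For the enzymes of the mitochondrial spiral, RPF changes in BM at day 10 lay between -1.12 and 0.39. The acyl-CoA dehydrogenases, which take the first electrons from chains of falling length, were led by *Acads* for short chains, which fell by 1.12 in BM at day 10 (199, 148 and 164 CPM in WT, 86.4, 75.2 and 76.4 in BM, SE 0.165, adjusted p = 0.0024) and by 0.51 in B. *Acadvl* and *Acadl*, for very long and long chains, fell by 0.43 and 0.50 in BM, calls lost with library totals alone (-0.05 and -0.12). *Acadm*, for medium chains, had 331, 339 and 293 CPM in WT, 446, 433 and 464 in M and 416, 428 and 415 in BM at day 4. It was higher in M (log2 0.51, SE 0.077, adjusted p = 0.00118) and in BM (0.41) at day 4 and lower in B at day 10 (-0.42, SE 0.134, adjusted p = 0.0586), and in BM at day 10 its value was 0.35 and called only without mouse 1 (0.46, adjusted p = 0.011). In the trifunctional protein, *Hadhb*, its thiolase subunit, rose in BM at day 10 (342, 302 and 321 CPM in WT, 376, 448 and 456 in BM, log2 0.39, SE 0.159, adjusted p = 0.0863), with an RNA value of 0.19 that was not called (SE 0.118, adjusted p = 0.235), and *Hadha*, its other subunit, was at -0.31 and called only without mouse 1 (-0.28). The difference between both subunits was not tested. *Acaa2* fell by 0.78 (SE 0.161, adjusted p = 0.00858), and *Hadh* and *Echs1*, which act in the middle of the round, were at -0.38 and 0.19.

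The auxiliary enzymes for unsaturated chains were higher in RPFs at day 4 in BM, with all 3 called where 26.2% of all genes were called higher. In RNA 2 of the 3 were called higher, where 21.3% of genes were, with *Eci1* at 0.14 (SE 0.108, adjusted p = 0.352). *Eci2* went from 157, 145 and 128 CPM in WT to 207, 266 and 256 (log2 0.78, SE 0.113, adjusted p = 0.000217), and with 204, 200 and 205 it was also higher in B (0.48, SE 0.0904, adjusted p = 0.00774), and *Eci1* and *Decr1* rose by 0.23 and 0.28. At day 10 *Eci1* and *Decr1* were below WT by 0.40 and 0.41, calls lost with library totals alone (-0.02 and -0.03), and *Eci2* was at 0.28 and not called. The electron acceptors *Etfa*, *Etfb* and *Etfdh*, which pass electrons to the respiratory chain, had RPF changes of -0.31 to -0.08 in BM at day 10, none called with all mice. In RNA *Etfb* (-0.47, SE 0.151, adjusted p = 0.039) and *Etfdh* (-0.55, SE 0.177, adjusted p = 0.0398) were called lower, both lost with library totals alone, and *Etfa* was at -0.05. *Etfb* was called lower in BM at day 4 (-0.26), with the opposite sign under library totals.

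Of the 5 peroxisomal members, 4 were called lower in RPFs in BM at day 10, where 22.3% of all genes were, and all 5 in RNA, where 22.8% were. *Acaa1b*, a peroxisomal thiolase, had 1110, 536 and 824 RPF CPM in WT at day 10, 414, 350 and 487 in B, 992, 1060 and 581 in M and 150, 76.5 and 68.7 in BM. B and BM lay below WT, and M overlapped it. It fell 8.45-fold in BM (log2 -3.08, SE 0.391, adjusted p = 0.00138), or 11.4-fold without mouse 1, and by 1.00 in B (SE 0.247, adjusted p = 0.024). At day 4 it had been higher in B, with 1060, 900 and 1240 CPM against 712, 601 and 745 in WT (log2 0.62, SE 0.125, adjusted p = 0.0115). Its close paralogue *Acaa1a* was at -0.09 in RPFs and -1.21 in RNA (SE 0.254, adjusted p = 0.0064), and how reads were divided between both genes is uncertain. *Ehhadh*, the bifunctional enzyme, had 310, 333 and 291 CPM in WT and 457, 395 and 467 in B at day 4. It rose by 0.48 in B (SE 0.0941, adjusted p = 0.00955) and fell by 0.80 in BM at day 10 (SE 0.156, adjusted p = 0.00695). *Crot*, which exports shortened chains as carnitine esters, had 1420, 1640 and 1330 CPM in WT at day 4, 995, 998 and 1000 in M and 816, 1180 and 962 in BM, and fell by 0.52 in M (SE 0.0854, adjusted p = 0.00194) and 0.54 in BM (SE 0.135, adjusted p = 0.0073). At day 10 it fell by 1.60 in BM, from 1120, 1070 and 1310 CPM to 551, 294 and 317. The BM call of *Crot* at day 4 was lost with library totals alone (adjusted p = 0.376). *Pex11a*, which promotes peroxisome division, fell by 1.69 in BM and 0.93 in B at day 10, the latter with overlapping groups, and by 0.38 in M at day 4 (SE 0.121, adjusted p = 0.0442), with 26.6, 31.1 and 23.4 CPM in WT and 19.4, 19.2 and 22.3 in M, a call lost when WT mouse 2 (adjusted p = 0.127), M mouse 1 (0.134) or M mouse 2 (0.116) was left out and with library totals alone (0.325).

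Of the ketone body enzymes, *Bdh1*, which interconverts acetoacetate and β-hydroxybutyrate, changed sign between the days in BM. It had 222, 284 and 230 RPF CPM in WT and 364, 472 and 437 in BM at day 4, and 262, 234 and 241 in WT and 125, 40.5 and 49.8 in BM at day 10. It rose 1.76-fold at day 4 (log2 0.82, SE 0.121, adjusted p = 0.000264) and fell 3.46-fold at day 10 (-1.79, SE 0.396, adjusted p = 0.011), or 5.48-fold without mouse 1, whose level was above that of the other BM mice. *Acat1*, the mitochondrial thiolase that joins acetyl-CoA units, had 405, 438 and 399 CPM in WT and 624, 586 and 676 in M at day 4 and rose by 0.64 (SE 0.0782, adjusted p = 0.000406). At day 10 it had 549, 461 and 539 in WT and 305, 246 and 265 in B and fell by 0.94 (SE 0.129, adjusted p = 0.002), and in BM it went from a rise of 0.43 to a fall of 0.50.

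The last members are *Acot1* and *Vnn1*, both textbook targets of PPARA. *Acot1*, which hydrolyses acyl-CoA in the cytosol, had 3.68, 2.31 and 2.60 RPF CPM in WT at day 4, 17.2, 14.5 and 17.9 in B, 2.98, 2.22 and 5.27 in M and 21.1, 19.9 and 22.6 in BM. B and BM stood clear of WT and M. It rose 5.61-fold in B (log2 2.49, SE 0.184, adjusted p = 4.27e-05) and 7.36-fold in BM (2.88, SE 0.167, adjusted p = 3.62e-07), the largest rises of any member at day 4. Day 10 levels were 7.0, 3.17 and 5.41 CPM in WT, 6.74, 2.94 and 4.69 in B, 2.78, 4.10 and 3.38 in M and 2.49, 0.466 and 0.578 in BM, where the lowest library held 6 counts. B and WT overlapped (log2 -0.14, SE 0.351, adjusted p = 0.816), and BM fell 4.22-fold (log2 -2.08, SE 0.598, adjusted p = 0.0293), or 9.92-fold without mouse 1. *Acot1* has close relatives whose reads may be shared with it. *Vnn1*, a pantetheinase, had 35.3, 18.4 and 14.4 CPM in WT and 11.6, 1.32 and 0.744 in BM at day 10 and fell by 2.29 (SE 0.857, adjusted p = 0.0692). The BM call was lost without WT mouse 1 (adjusted p = 0.209), WT mouse 2 (0.119), WT mouse 3 (0.105), BM mouse 2 (0.164) or BM mouse 3 (0.11) and with library totals alone (0.117), and without BM mouse 1 the fall was 22.0-fold (log2 -4.46, SE 0.464, adjusted p = 1.46e-05). In B at day 10 *Vnn1* had 10.4, 15.1 and 10.7 CPM, with 1 mouse overlapping WT, and was called lower (-0.94, SE 0.307, adjusted p = 0.0648).

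Whether the BM effect itself differed between the days was tested as an interaction over the 12 WT and BM mice. The difference was called for 25 members in RPFs, 3 higher and 22 lower at day 10 (35.7% of 11728 genes called, 17.2% higher and 18.6% lower), and for 29 in RNA, 3 higher and 26 lower (29.9% of 11743 called, 13.4% higher and 16.6% lower). The median difference was -0.65 in RPFs and -1.01 in RNA, against -0.01 for the RPFs of all genes. All these calls kept their direction and call with library totals alone. Without BM mouse 1 the difference was called for 28 members in RPFs and 30 in RNA, where 57.3% and 43.5% of all genes were. The fasted-liver genes moved with the days too, with RPF sums of 5250 to 8490 CPM in WT and 1290 to 1560 in BM at day 4, when B (3410 to 4600) and M (3360 to 4470) also lay below WT, beside 2980 to 3350 and 2620 to 18800 at day 10, when M (1520 to 2330) lay below WT and B (2800 to 3810) overlapped it. The fed-liver genes summed to 6380 to 8560 CPM in WT and 4230 to 4990 in BM at day 4, when they lay above WT in B (9040 to 10300) and overlapped it in M (5830 to 7980). At day 10 they summed to 9440 to 11700 in WT and 1250 to 3580 in BM, and also lay below WT in B (5640 to 7810) and M (5180 to 6460). In BM at day 10, 11 of the 12 fed-liver genes were called lower, where 22.3% of all genes were, with a median log2 change of -2.21 against 0.03 over all genes. In B 7 were called lower, where 12.1% of all genes were, and in M 5, where 8.80% were, and none was higher in any of the 3 genotypes. The part of either list in the members' results was not tested. With all mice the largest differences were those of *Fabp1* (-5.89, SE 0.399, adjusted p = 2.76e-06), *Acot1* (-4.93, SE 0.627, adjusted p = 0.000275) and *Ppargc1a* (3.20, SE 0.806, adjusted p = 0.0124), and *Cd36* and *Cpt1a* were the other members higher at day 10, by 1.78 and 1.11. Without BM mouse 1 the values were -6.40 for *Fabp1*, -6.21 for *Acot1* (SE 0.449, adjusted p = 1.12e-07), -4.76 for *Vnn1* (SE 0.52, adjusted p = 4.94e-06) and 3.67 for *Ppargc1a*, so that *Vnn1*, at -2.54 with all mice, came before *Ppargc1a* in size. *Bdh1* went from -2.59 to -3.29, and *Etfb* (0.30), *Eci2* (-0.51) and *Ppara* (-0.57) were then called. *Acadm*, *Hadhb* and *Echs1* had values of -0.05, -0.01 and 0.19 and were not called. In B, 7 members (*Acsl5*, *Acadvl*, *Acadm*, *Eci1*, *Etfa*, *Acaa1b* and *Crat*) had all B mice above all WT mice at day 4 and all below at day 10, a pattern that 1.81% of the 11003 genes tested at both days shared. Of the 7, only *Acsl5*, *Eci1* and *Acaa1b* were called at both days. The difference between the days was not tested in B.

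**Figure D3:**
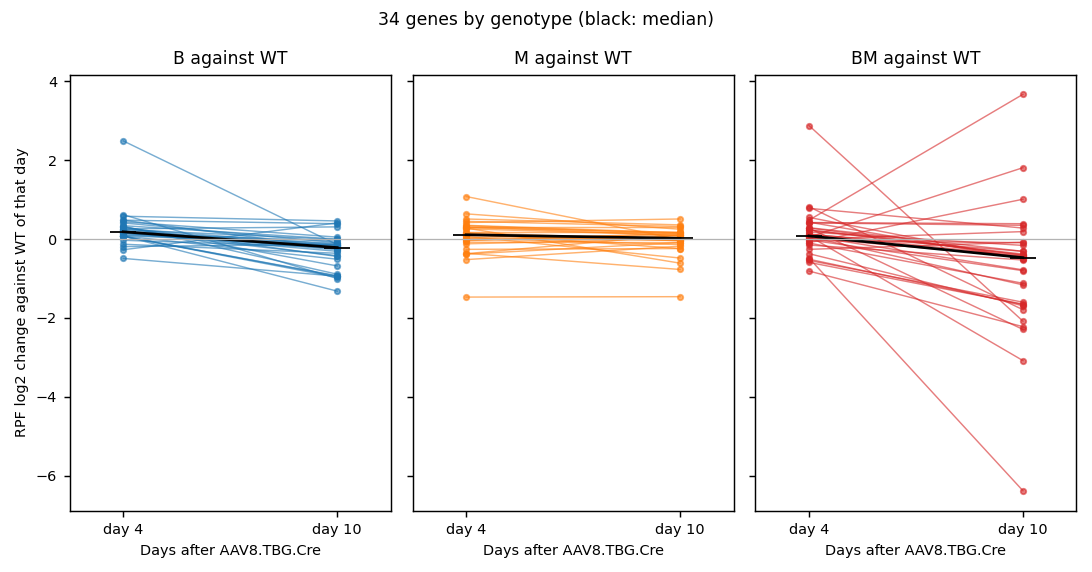
RPF log2 change of each of the 34 genes against WT of the same day in B, M and BM, joined between day 4 and day 10, with the median in black. The BM median goes from 0.08 to -0.47 and the B median from 0.18 to -0.22, while that of M stays near 0 (0.11 and 0.02).

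Set directly against the single mutants, BM had 6 members higher and 9 lower than M at day 4 (38.2% of 11411 genes called, 18.8% higher and 19.3% lower) and 7 higher and 11 lower than B (44.7% of 11373, 23.2% higher and 21.5% lower). With library totals alone these became 15 and 4, and 19 and 4, with 48.3% and 56.6% of genes called, and *Acat1* against M and *Etfb*, *Slc25a20* and *Acaa1a* against B changed sign. At day 10 it had 3 higher and 20 lower than M (32.7% of 11524 called, 16.0% higher and 16.7% lower) and 4 higher and 14 lower than B (36.5% of 11605 called, 18.8% higher and 17.7% lower). The count against M was 11 without M mouse 1, 13 without M mouse 2, 14 when BM mouse 2 was left out and 15 when BM mouse 3 was, and that against B was 10 without BM mouse 2. Without BM mouse 1 they were 25 and 26, where 59.2% and 61.0% of all genes were called. At day 10 *Fabp1* lay below B by 5.06 (SE 0.398, adjusted p = 0.000881) and below M by 5.63 (SE 0.433, adjusted p = 0.000646), and *Ppargc1a* lay above B by 3.23 (SE 0.686, adjusted p = 0.0179) and above M by 3.68 (SE 0.704, adjusted p = 0.0137). *Cd36* was higher in BM than in either. For *Cpt1a*, the difference was 0.90 against M (SE 0.243, adjusted p = 0.0395) and 0.61 against B (SE 0.247, adjusted p = 0.104), the latter with overlapping mice, and without BM mouse 1 it was called against B too, at 0.84 (SE 0.143, adjusted p = 0.00181). At day 4, *Acot1* was higher in BM than in B by 0.39 (SE 0.109, adjusted p = 0.019) and than in M by 2.60 (SE 0.229, adjusted p = 5.96e-05).

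Translation efficiency (TE), the RPF level over the RNA level, was tested as the interaction of genotype and library type. No member was called in B, M or BM at either day or in the difference between the days. Across all genes, 0.0488%, 0.971% and 2.23% were called in B, M and BM at day 4 and 0.0564%, 0.00% and 0.259% at day 10, and 0.310% in the difference. Members with an unadjusted p under 0.05 numbered 0, 1 and 2 at day 4, 1, 0 and 1 at day 10 and 1 in the difference, and DESeq2 also called none. With library totals alone 2 members were called in BM at day 4, and the share of all genes under that scaling is not given here. Both libraries came from the same mouse, and with the mouse as a block 3 members were called in BM at day 4, *Cpt1a* (-0.32, SE 0.0866, adjusted p = 0.0328), *Acsl5* (-0.35, SE 0.0917, adjusted p = 0.0257) and *Acadl* (-0.36, SE 0.102, adjusted p = 0.0429), all lower. At day 10 the block called *Acaa1a* (1.10, SE 0.157, adjusted p = 0.00573), *Fabp1* (0.97, SE 0.241, adjusted p = 0.0688) and *Acaa1b* (0.61, SE 0.159, adjusted p = 0.0771), all higher, and in the difference *Acaa1a* (1.24) and *Fabp1* (1.09). The block called 6.17% of all genes in BM at day 4, 5.21% at day 10 and 1.87% in the difference. Without the block, leaving out BM mouse 1 gave 7 members called at day 10, all higher, namely *Etfb*, *Acadvl*, *Ehhadh*, *Decr1*, *Acaa1a*, *Bdh1* and *Fabp1*, and 3 in the difference. These counts are close to or below the share over all genes, of which 21.5% and 13.2% were then called.

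Per mouse, the log2 TE of *Fabp1* was 0.690, 0.970 and 1.15 in WT and 1.53, 2.40 and 2.28 in BM at day 10, and that of *Bdh1* was 0.509, 0.549 and 0.581 in WT and 0.452, 1.40 and 1.48 in BM. For *Fabp1* all BM mice lay above WT, and for *Bdh1* mouse 1 lay below it. *Acaa1a* had 0.210, 0.486 and 0.234 in WT and 1.32, 1.62 and 1.39 in BM, without overlap. The members' median log2 TE change in BM at day 10 was 0.16, against 0.03 over all genes, with 26 of 34 above 0, and that of the difference between the days was 0.24 against 0.04. Their median log2 change against WT was -0.72 for RNA and -0.47 for RPFs.

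**Figure D4:**
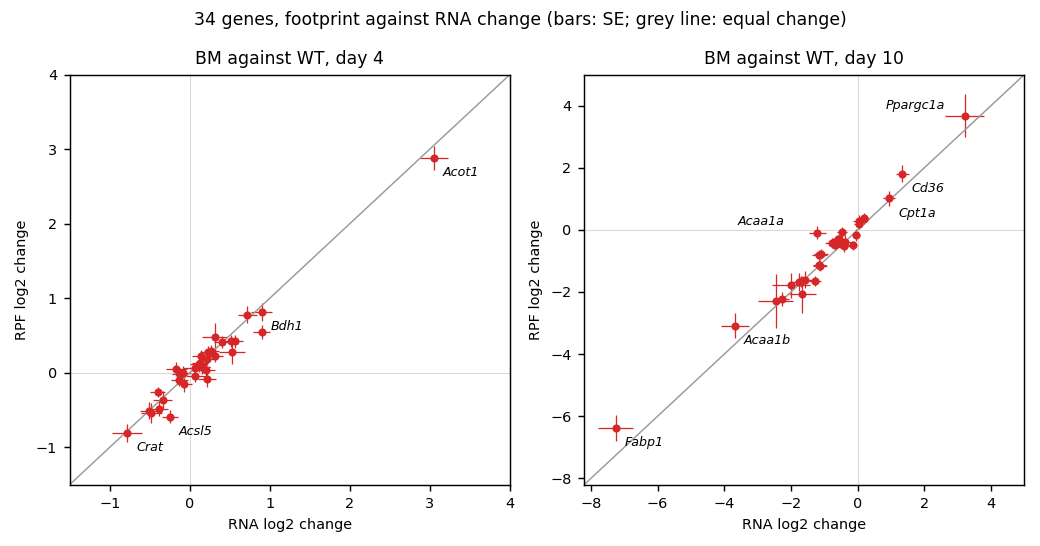
RPF log2 change against RNA log2 change for the 34 genes in BM against WT at day 4 (left) and day 10 (right), with bars for SE and a grey line of equal change. At day 10 most members lie at or above the line, among them Fabp1 (-6.38 in RPFs, -7.26 in RNA) and Acaa1a (-0.09 and -1.21).

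Other genes of the pathway were counted from lists written for this work. In BM at day 10, 12 of the 25 tested genes of a further peroxisomal oxidation list were called lower and 2 higher (median log2 RPF change -0.46), led by *Nudt7*, a peroxisomal coenzyme A hydrolase (-3.89, SE 0.176, adjusted p = 4.27e-05), and *Abcd3*, a transporter of the peroxisomal membrane (-1.45, SE 0.194, adjusted p = 0.00167). Of 19 further activation and uptake genes, 12 fell and 4 rose (median -0.56), led by *Fabp5* (-4.49, SE 0.329, adjusted p = 0.000148) and *Fabp2* (-3.02, SE 0.233, adjusted p = 0.000191), both fatty acid binding proteins. Of 25 further targets attributed to PPARA, 10 fell and 4 rose (median -0.18), and those that moved most went in opposite directions, the lipid droplet gene *Plin4* at 5.22 (SE 0.533, adjusted p = 0.000624) and the fatty acid hydroxylase *Cyp4a12a* at -4.40 (SE 0.286, adjusted p = 0.000115). Of 18 further mitochondrial oxidation genes, 7 rose and 5 fell (median 0.27), among them *Acad10* (1.63, SE 0.17, adjusted p = 0.00068) and *Acsf2* (-1.36, SE 0.196, adjusted p = 0.00217). Of 8 further ketogenesis and ketone transport genes, 2 rose and 2 fell (median 0.10), among them the monocarboxylate transporter *Slc16a7* (1.95, SE 0.206, adjusted p = 0.000717) and *Bdh2* (-1.63, SE 0.266, adjusted p = 0.00347). These shares stand against 24.5% of all genes called higher and 22.3% called lower. Without BM mouse 1, when 33.4% of all genes were called higher and 32.9% lower, the counts lower and higher were 14 and 3 for peroxisomal oxidation, 14 and 4 for activation and uptake, 13 and 5 for PPARA targets, 5 and 8 for mitochondrial oxidation and 2 and 3 for ketogenesis, whose median was then -0.05. The other comparisons with WT are given in the order peroxisomal oxidation, activation and uptake, PPARA targets, mitochondrial oxidation and ketogenesis, as genes called higher and lower in RPFs. In BM at day 4 they were 7 and 6, 1 and 11, 9 and 11, 3 and 4, and 3 and 1, where 26.2% and 24.7% of all genes were called. Of the activation and uptake genes, 11 of 19 were thus called lower in BM at day 4 and 12 at day 10. In M they were 9 and 5, 2 and 8, 3 and 6, 12 and 1, and 4 and 2 at day 4 (18.5% and 14.7%), with a median of 0.38 for mitochondrial oxidation. At day 10 the M counts were 0 and 3, 0 and 4, 3 and 3, 5 and 0, and 0 and 0 (10.6% and 8.80%). In B they were 5 and 1, 3 and 0, 7 and 2, 4 and 0, and 1 and 1 at day 4 (6.21% and 6.26%). At day 10 the B counts were 1 and 6, 1 and 8, 5 and 7, 0 and 6, and 2 and 3 (13.1% and 12.1%).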

How the data were processed

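Ribosome footprints and cytoplasmic RNA were taken from 24 mouse livers, and replicates are separate mice grouped by the labels. RPF counts per coding sequence were deposited as raw counts. The authors had trimmed reads (cutadapt 1.18 in the submitters' processing notes), aligned them with BBmap to 1 transcript per gene of GENCODE vM27, removed duplicates by UMI and left out the ends of each coding sequence. A transcript absent from a library's table (1689 to 3019 per library) was taken as 0. For RNA, the authors aligned with Bowtie2 2.3.5.1 and deposited RSEM 1.3.3 expected counts and TPM per transcript. Expected counts were summed per gene and rounded (at least 99.92% of those above 0 were whole). TPM was used only to give length-corrected levels and to order genes by them. FPKM and isoform percentages were not used. Symbols came from GENCODE vM39 (20614 of 20622 genes matched).

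Genes passing filterByExpr (minimum count 10, minimum total 15) were tested with edgeR 4.0.16 in R 4.3.3 (quasi-likelihood F-test, TMM within the comparison), on the groups compared alone, with Benjamini-Hochberg adjustment over all genes tested and a threshold of 0.1. TE was the interaction of genotype and library type. The standard error was taken from the fitted change and its F value. RPF totals had a median of 12503695 and RNA totals of 5077216, and the lowest member held 6 counts in a library. The RPF and RNA libraries of a mouse are paired by their source, and their deviations from the group means correlated at 0.306 to 0.674 in all 24 mice (median 0.508), so TE is also given with the mouse as a block.

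Full values are given for *Ppara* and *Cpt1a*, for the 3 members called with the largest RPF change in each direction per comparison with WT, and for TE calls, and per further list for the 2 called with the largest change in BM at day 10. Other members' values were chosen by role after they were seen. The 34 genes and all lists were chosen with earlier results of these data known. Alternatives were DESeq2 1.42.0, scaling by library totals, no filter, the replicate number or mouse as a block, and leaving out each mouse. All fits were tested on simulated data. Promoters came from RefSeq (GRCm38.p6), and those of *Decr1*, *Acaa2*, *Crat*, *Vnn1* and *Acat1* were not matched.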

Additional observations from a re-analysis of the deposited data

Results flagged for a closer look

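The BM effect differed between day 4 and day 10 by the test of the difference itself for 25 of the 34 genes in RPFs and 29 in RNA. Of all genes, 35.7% and 29.9% were called in that test. Among the genes described in full, the day 10 effect on RPFs was above that of day 4, on the log2 scale, by 3.20 for *Ppargc1a*, 1.78 for *Cd36* and 1.11 for *Cpt1a*. It was below it for *Fabp1* (-5.89), *Acot1* (-4.93), *Acaa1b* (-3.15), *Bdh1* (-2.59), *Vnn1* (-2.54), *Crat* (-1.40), *Acsl5* (-1.05) and *Crot* (-1.05). BM mouse 1 at day 10 lay between WT and the other BM mice for all 11 of these genes. Without that mouse, the differences that moved by over 1.5 times on the fold scale were, as log2, -6.21 for *Acot1*, -4.76 for *Vnn1* and -3.29 for *Bdh1*. The counts of genes were then 28 in RPFs and 30 in RNA, where 57.3% and 43.5% of all genes were called.

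In B, every mouse lay above every WT mouse at day 4 and below at day 10 for 7 of the 34 genes, against 1.81% of 11003 genes tested at both days, and this difference between the days was not tested. The log2 changes at day 4 and day 10 were 0.62 and -1.0 for *Acaa1b*, 0.33 and -0.89 for *Crat*, 0.31 and -0.68 for *Acsl5*, 0.30 and -0.44 for *Eci1*, 0.20 and -0.42 for *Acadm*, 0.16 and -0.31 for *Acadvl*, and 0.16 and -0.24 for *Etfa*. *Acaa1b*, *Acsl5* and *Eci1* were called at both days, *Crat*, *Acadm* and *Acadvl* at day 10 only and *Etfa* at neither. Groups of 3 mice were not tested for single mice that stood apart.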

How the results depend on the processing

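DESeq2 and the absence of a filter left all 25 counts of called members within 1.5 times of the reported ones. Scaling by library totals moved 9 of them, to 20, 26 and 30 for RPFs in B, M and BM and 22, 30 and 28 for RNA at day 4, to 12 for RPFs and 9 for RNA in M at day 10, and to 2 for TE in BM at day 4. For that TE count the share of all genes called is not given here. The mouse as a block moved the TE counts to 3 in BM at day 4, 3 at day 10 and 2 in the difference between the days. Mutant and WT mice that share a replicate number had correlations of deviations of -0.238 to 0.281 over 36 pairs (median 0.0172, 8 above 0.1). For the mice numbered 1 at day 10 they were 0.281, 0.167 and 0.188 in RPFs for B, M and BM. In RNA these were 0.273, 0.0694 and 0.228. What the mice numbered 1 had in common was not tested. The replicate number as a block moved no count over 1.5 times, with the M value of *Acsl5* at day 10 no longer called (-0.49). Leaving out 1 mouse gave 5 to 11 RPF and 5 to 9 RNA calls in B at day 4, 8 to 15 and 5 to 11 in B at day 10, 1 to 8 and 2 to 5 in M at day 10, and 16 to 30 RPF calls in BM at day 10. The ranges at day 10 were 11 to 25 for BM against M, 10 to 26 for BM against B, 0 to 7 for TE in BM and 0 to 3 for TE in the difference. Values near 0 changed sign: *Ppara* ranged from -0.25 to 0.02 in B (0.02 without WT mouse 2) and from -0.09 to 0.18 in BM at day 4 (-0.09, -0.03 and -0.05 without WT mouse 3, BM mouse 2 and BM mouse 3) over single mice left out, and was 0.01 in M at day 10 with library totals, which also gave 0.33 for *Cpt1a* in BM at day 4. The cause was not tested. With 3 mice a group, calls near the threshold rest on single mice, and depth limits *Acot1* and *Vnn1* most, with 6 to 9 counts in their lowest libraries.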
